A study of Mus musculus with 6 samples.

Results

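The step from gestation to lactation in the maternal mouse liver was described by comparing hepatocyte nuclei at day 7 after birth in lactating mice (P7L) with those at the gestation day given in the label G14.5. All mice were wild-type female C57BL/6J, mated at about 8 weeks of age. Each stage was represented by 2 libraries, 1 of nuclei labelled as isolated from liver tissue and 1 of nuclei labelled as isolated by perfusion. These 4 libraries of the 6 in the series were chosen by stage and held 1131 of its 1567 nuclei, 224 (liver tissue) and 301 (perfusion) at G14.5 and 308 and 298 at P7L. The other 2 libraries, from mice at day 0 of gestation (G0), entered the fit to help estimate the spread and are given only as reference levels. Sequencing was by Smart-seq3xpress, a plate-based full-length method that reads each nucleus or cell in its own well. The labels call the samples nuclei, whereas the protocol describes single hepatocytes picked by hand after collagenase digestion and Percoll enrichment of viable hepatocytes. No animal is named, so p-values measure only the spread between these libraries, which may be technical.

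In the maternal liver, placental lactogens in gestation and pituitary prolactin in lactation act on the prolactin receptor, which, like the growth hormone receptor, signals through the kinase JAK2 and the transcription factor STAT5. STAT5 turns on its own inhibitors of the SOCS family. Gestation also brings high glucocorticoids, whose plasma carrier the liver makes, and lactation brings high food intake and a flow of amino acids, glucose and lipids to the mammary gland.

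The 4 libraries held between 258327734 and 379767336 reads. In every pair of values that follows, liver tissue stands first and perfusion second. Thinned to 250000 reads, the median nucleus had 5992 and 6047.5 genes at G14.5 and 6706 and 6749 at P7L. The 100 most abundant genes took 25.1% and 25.8% of reads at G14.5 and 20.5% and 20.7% at P7L. No nucleus profile occurred in 2 libraries. Hepatocyte markers made up 1.43% to 1.72% of reads in the 4 libraries, with Alb the most abundant. Trf, the marker gene of transferrin, had 0 reads in 3 of the 4 libraries. In no nucleus did the markers take over 1% of reads for endothelial, macrophage, stellate, bile duct, lymphoid, neutrophil, erythroid, mammary or placental cells. The hepatocyte markers passed this limit in 206 of 224 and 272 of 301 nuclei at G14.5 and 295 of 308 and 285 of 298 at P7L. Of the tested members of the other lists, 1 was called different between the stages, Onecut2, which hepatocytes also express. Most of these markers were under 5 CPM, where 2.1% of all tested genes were called, so few calls could arise among them. With library size alone 2 bile duct markers were called higher and Onecut2 was not called.

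Of 15015 tested genes, 1390 differed between P7L and G14.5 at a Benjamini-Hochberg adjusted p under 0.05 in edgeR's quasi-likelihood test, which is 9.26% of those tested. At P7L 630 were higher (4.2%) and 760 lower (5.06%), and 3549 had an unadjusted p under 0.05. Levels are given as CPM, a share of the library's reads scaled by edgeR's TMM method, and differences as log2 fold changes of P7L over G14.5 with their standard error (SE). A change of at least 8-fold was fitted for 81 of the higher and 126 of the lower genes. Abundant genes were called most often, 55.7% of the 140 genes at 1000 CPM or more in the higher stage. Of the 5231 under 5 CPM, 55 were higher and 55 lower. Together the lower genes took 296994 and 314637 CPM at G14.5 against 114507 and 119953 at P7L. The higher genes went from 62070 and 67359 CPM to 130529 and 138092 CPM. CPM are shares of the reads of a library, so a few very abundant genes that fall lift the shares of all others. With library size alone in place of TMM, which moved the median of all genes by 0.20 on the log2 scale, 1048 genes were higher and 551 lower.

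All 1390 called genes changed in the same direction in the liver tissue pair and in the perfusion pair, as did 70.6% of all genes tested. The calls were made from these same libraries. Neither this agreement nor a lack of overlap between the stages, given below for called genes, is therefore a separate check. Over the 6368 genes at 20 CPM or more in either stage, the log2 differences of the 2 preparations had a Pearson correlation of 0.875, a description across genes, which are not independent. Their median absolute difference was 0.23. Leaving out 1 library lowered the number of called genes by more than 1.5 times, to 572 without G14.5 liver tissue, 705 without G14.5 perfusion, 506 without P7L liver tissue and 421 without P7L perfusion. Of the 1390 genes, 324 were called in all 4 of these fits.

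**Figure D1:**
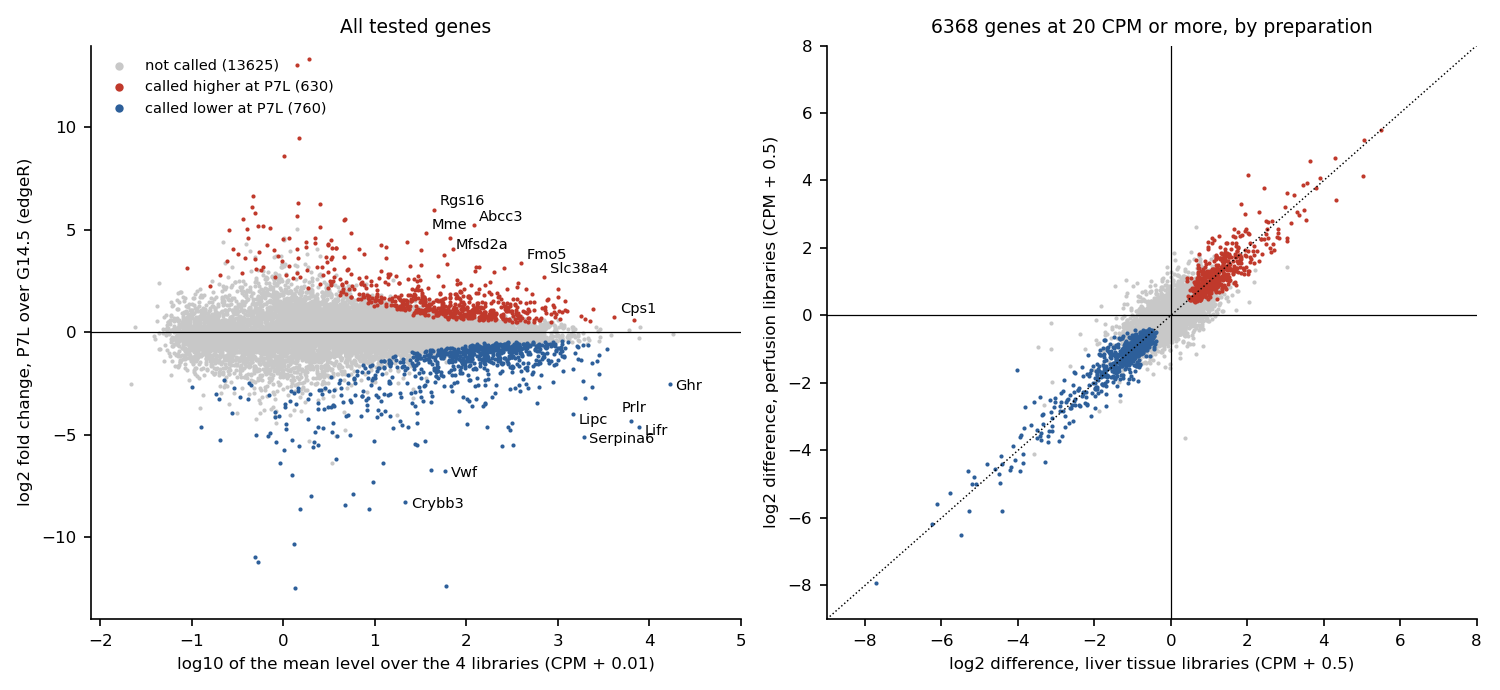
Left, each of the 15015 tested genes by its mean level (log10 CPM) and its log2 fold change of P7L over G14.5, red where called higher (630) and blue where called lower (760). Right, the log2 difference within the liver tissue pair against that within the perfusion pair for the 6368 genes at 20 CPM or more, where all called genes lie in the quadrants of equal direction and near the dotted line of equality.

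The receptors for prolactin, growth hormone and leukemia inhibitory factor were among the most abundant messages of the G14.5 nuclei and fell together by P7L. Ghr, the growth hormone receptor, stood at 27766 and 29177 CPM at G14.5 against 5268 and 4621 at P7L (log2 fold change -2.53 ± 0.1 SE, adjusted p = 5.51e-05). Lifr, the receptor subunit for leukemia inhibitory factor and related cytokines, stood at 14972 and 14414 CPM at G14.5 against 529 and 681 at P7L (log2 fold change -4.61 ± 0.14 SE, adjusted p = 3.07e-05). Prlr, the prolactin receptor, stood at 10939 and 13117 CPM at G14.5 against 605 and 583 at P7L (log2 fold change -4.34 ± 0.17 SE, adjusted p = 5.51e-05). For each of them both G14.5 libraries lay far above both P7L libraries, and the fall was seen in the typical nucleus too. The median nucleus had 9056 and 11272 CPM at G14.5 against 521 and 425 at P7L for Prlr and 13318 and 12141 CPM at G14.5 against 359 and 435 at P7L for Lifr. The G0 libraries held 1887 and 1445 CPM of Prlr, 651 and 755 CPM of Lifr and 6636 and 6470 CPM of Ghr, in each case far below the G14.5 values. Lepr, the leptin receptor, stood at 34.8 and 19.3 CPM at G14.5 against 32.6 and 39.5 at P7L and was not called (adjusted p = 0.429).

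On GRCm38, Ghr lies on chromosome 15 from 3317760 to 3583492 on the minus strand, Lifr on chromosome 15 from 7090614 to 7197489 on the plus strand and Prlr on chromosome 15 from 10177238 to 10349180 on the plus strand, within 7.03 Mb of each other. The 3 genes together took 53676 and 56707 CPM at G14.5 against 6402 and 5885 at P7L. Between them the annotation (GENCODE M21) places 32 other tested genes, of which 3 were called higher, 1 lower and 28 not. The 12 of these at 20 CPM or more had a median log2 fold change of -0.04. One of the higher genes was C9, a terminal complement component that lies between Ghr and Lifr (8.3 and 7.34 against 96.7 and 114 CPM).

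Below these receptors, 2 feedback inhibitors were lower at P7L. They were the only called genes of 9 tested in JAK-STAT signalling and its feedback, and both were called whichever of the 4 libraries was left out. Socs2, a feedback inhibitor induced by STAT5, stood at 352 and 301 CPM at G14.5 against 15.2 and 11.2 at P7L (log2 fold change -4.63 ± 0.3 SE, adjusted p = 3.66e-04). Thinned to an equal depth, 97.8% and 98.7% of nuclei at G14.5 and 31.6% and 29.4% at P7L held reads of Socs2. Cish, another STAT5-induced inhibitor, was at 6.38 and 11.9 CPM at G14.5 against 0.49 and 0.555 at P7L (log2 fold change -4.08 ± 0.49 SE, adjusted p = 0.00329). The call of Cish was lost with the authors' scaled values and pseudocount 1. In the fit of all 6 libraries the transducers themselves were not called, among them Jak2 (80.5 and 80.1 against 69.5 and 75.7 CPM, adjusted p = 0.659) and Stat5b (201 and 239 against 148 and 180.1 CPM, adjusted p = 0.144). With the 4 libraries of G14.5 and P7L fitted alone, 5 of the 9 genes were called lower. Whether Stat5b was called depended on the fit, and Jak2 was called in none. Igf1, the growth factor that growth hormone induces in liver, stood at 808 and 1098 CPM at G14.5 against 421 and 397 at P7L (log2 fold change -1.22 ± 0.17 SE, adjusted p = 0.00625), below the 1952 and 1654 CPM of the G0 libraries. Its call was lost without the P7L perfusion library. Igfbp1, an insulin-like growth factor binding protein, fell too (231 and 334 against 43.4 and 74.1 CPM, log2 fold change -2.3 ± 0.22 SE), so that 2 of 8 genes of the IGF axis were called, both lower. Egfr, the epidermal growth factor receptor, stood at 2808 and 4210 CPM at G14.5 against 1182 and 1234 at P7L (log2 fold change -1.52 ± 0.16 SE), and both P7L libraries lay below both G14.5 libraries.

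The promoter of Cish is shown because it holds the STAT5 motif next to its start site. RefSeq promoter windows of GRCm38.p6, from 250 bases before to 50 bases after the annotated start site, were matched by symbol to 10600 of the 15015 tested genes (70.6%), with the first window listed used where a gene has several. In the window of Cish (chr9:107296409-107296708, plus strand) the STAT5 motif TTCNNNGAA occurs 2 times, starting at positions 1 and 12 from the start site. The capitals mark these matches, and the window was chosen after its values were seen.
Cish: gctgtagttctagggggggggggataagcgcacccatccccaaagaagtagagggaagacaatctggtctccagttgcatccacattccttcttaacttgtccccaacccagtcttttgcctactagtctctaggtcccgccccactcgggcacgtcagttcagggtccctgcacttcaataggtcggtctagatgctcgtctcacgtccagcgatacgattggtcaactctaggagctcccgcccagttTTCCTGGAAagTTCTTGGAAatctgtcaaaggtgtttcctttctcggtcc
Of 9 tested genes of the list 8 had a window, and 2 of them held the motif, Cish and Socs3, the latter not called (adjusted p = 0.801). Searched on both strands, the motif was in 43 of 543 windows of genes called lower (7.92%), 26 of 442 of genes called higher (5.88%) and 754 of all 10600 (7.11%). A match is a run of letters and not a measured binding site.

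In the fit of all 6 libraries, the machinery that folds and exports secreted proteins had the largest share of genes called lower at P7L. This rank is among the 45 lists of functional groups examined, leaving out lists under 8 tested genes. It was not kept in every fit that left out 1 of the 4 libraries. Of 31 tested genes of the unfolded protein response and secretion, 19 were lower and 0 higher, 27 had an unadjusted p under 0.05, and the median log2 fold change was -1.01 against 0.00 over all tested genes. Hspa5, the main chaperone of the endoplasmic reticulum, stood at 139 and 103 CPM at G14.5 against 27.9 and 29.4 at P7L (log2 fold change -2.07 ± 0.22 SE, adjusted p = 0.00233). Other proteins of that compartment were lower too. Hsp90b1, the chaperone GRP94, stood at 182 and 171 CPM at G14.5 against 108 and 109 at P7L (log2 fold change -0.7 ± 0.14 SE). Calr, calreticulin, stood at 82.4 and 77.3 CPM at G14.5 against 19.3 and 15.5 at P7L (log2 fold change -2.21 ± 0.23 SE). Canx, calnexin, stood at 544 and 511 CPM at G14.5 against 252 and 266 at P7L (log2 fold change -1.02 ± 0.13 SE). Among the disulfide isomerases, Pdia6 stood at 78.7 and 72.8 CPM at G14.5 against 13.5 and 21.9 at P7L (log2 fold change -2.14 ± 0.27 SE) and Pdia3 at 198 and 195 CPM at G14.5 against 59.1 and 55.9 at P7L (log2 fold change -1.77 ± 0.17 SE). Manf, a secreted protein induced by endoplasmic reticulum stress, stood at 46.3 and 40.6 CPM at G14.5 against 5.77 and 5.32 at P7L (log2 fold change -2.97 ± 0.28 SE, adjusted p = 0.00134). Creld2, likewise stress-induced, stood at 45.5 and 51.3 CPM at G14.5 against 6.06 and 6.76 at P7L (log2 fold change -2.92 ± 0.28 SE, adjusted p = 0.00151). In every one of these genes the 2 P7L libraries lay below both G14.5 libraries. The calls were made from these libraries, so this is no separate support. The sensors of the pathway were lower as well, with log2 fold changes ± SE of -1.02 ± 0.13 for Atf6, -1.21 ± 0.2 for Eif2ak3 (PERK) and -0.66 ± 0.15 for Ern1 (IRE1). So was Sec61a1, a subunit of the pore through which secreted proteins enter (log2 fold change -1.32 ± 0.19 SE). Xbp1 (44.5 and 51.9 against 26 and 34.6 CPM, adjusted p = 0.116) and Atf4 (59.7 and 86 against 41.5 and 43.4 CPM, adjusted p = 0.0739), transcription factors of the response, were not called. Leaving out 1 library gave 0 to 1 higher and 6 to 10 lower, with the 1 higher call in the fit without G14.5 liver tissue. The calls of Hsp90b1, Eif2ak3 and Ern1 were each lost whichever of the 4 libraries was left out, and those of Hsp90b1 and Ern1 with library size alone as well. The calls of Hspa5, Calr, Pdia3, Pdia6, Manf and Creld2 held in every alternative.

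Many promoters of this pathway are known to carry the endoplasmic reticulum stress element, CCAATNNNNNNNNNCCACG, and the files allow the genes that carry it to be read against their change. The element was searched on both strands after the values of the list had been seen. It was in the windows of 18 of the 10600 tested genes with a window (0.17%), of which 9 were called lower, 0 higher and 9 not called, with a median log2 fold change of -0.80. Among genes called lower the share was 1.66% and among genes called higher 0%, and of the 15 lower genes of the list with a window 7 held it. With library size alone 5 of the 18 were called lower, and 5 or 4 with 1 of the 4 libraries left out. The calls of Hsp90b1, Dnajc3, Acacb and Hnrnpa3 were lost in each of these fits and that of Canx without P7L liver tissue, while those of Calr, Pdia6, Creld2 and Hspa5 held in every alternative. The sites of the 9 lower genes follow, read in the direction of the motif, with the fixed letters in capitals.
Calr: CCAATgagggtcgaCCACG
Hsp90b1: CCAATcgcaaggagCCACG
Hsp90b1 second site: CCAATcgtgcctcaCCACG
Canx: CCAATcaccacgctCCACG
Pdia6: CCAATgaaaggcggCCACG
Dnajc3: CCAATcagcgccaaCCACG
Creld2: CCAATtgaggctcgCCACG
Hspa5: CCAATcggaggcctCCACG
Acacb: CCAATagccttgccCCACG
Hnrnpa3: CCAATggcgagagcCCACG
The positions of these sites on GRCm38.p6 are chr8:84847075-84847093 (Calr, plus strand), chr10:86705638-86705656 (Hsp90b1, minus strand), chr10:86705533-86705551 (Hsp90b1 second site, plus strand), chr11:50325800-50325818 (Canx, minus strand), chr12:17266491-17266509 (Pdia6, plus strand), chr14:118937827-118937845 (Dnajc3, plus strand), chr15:88819520-88819538 (Creld2, minus strand), chr2:34772025-34772043 (Hspa5, plus strand), chr5:114165431-114165449 (Acacb, plus strand) and chr2:75659017-75659035 (Hnrnpa3, minus strand). Acacb, an acetyl-CoA carboxylase (-0.77 ± 0.18, log2 fold change ± SE), and Hnrnpa3, an RNA-binding protein (-0.75 ± 0.18), are not members of the list. The site of Creld2 is also in the window of Alg12, which is read from the opposite strand and was not called (-0.95 ± 0.4, adjusted p = 0.212), and that of Calr lies in the window of a second gene model that was not called. Syvn1, a ubiquitin ligase of the pathway, holds the element and missed the threshold (-1.12 ± 0.28, adjusted p = 0.053). The whole window of Hspa5 (chr2:34771840-34772139, plus strand) is shown with its element in capitals, beginning at position -65 from the start site.
Hspa5: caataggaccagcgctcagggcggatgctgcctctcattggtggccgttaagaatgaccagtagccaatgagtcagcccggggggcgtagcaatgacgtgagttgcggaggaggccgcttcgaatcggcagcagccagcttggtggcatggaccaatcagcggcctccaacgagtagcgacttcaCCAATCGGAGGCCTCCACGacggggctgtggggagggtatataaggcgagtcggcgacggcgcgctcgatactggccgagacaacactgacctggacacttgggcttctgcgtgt
The CCAAT box alone, which is contained in the element, is common, and was in 43.1% of windows of lower genes, 40.0% of higher genes and 38.6% of all tested genes.

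**Figure D2:**
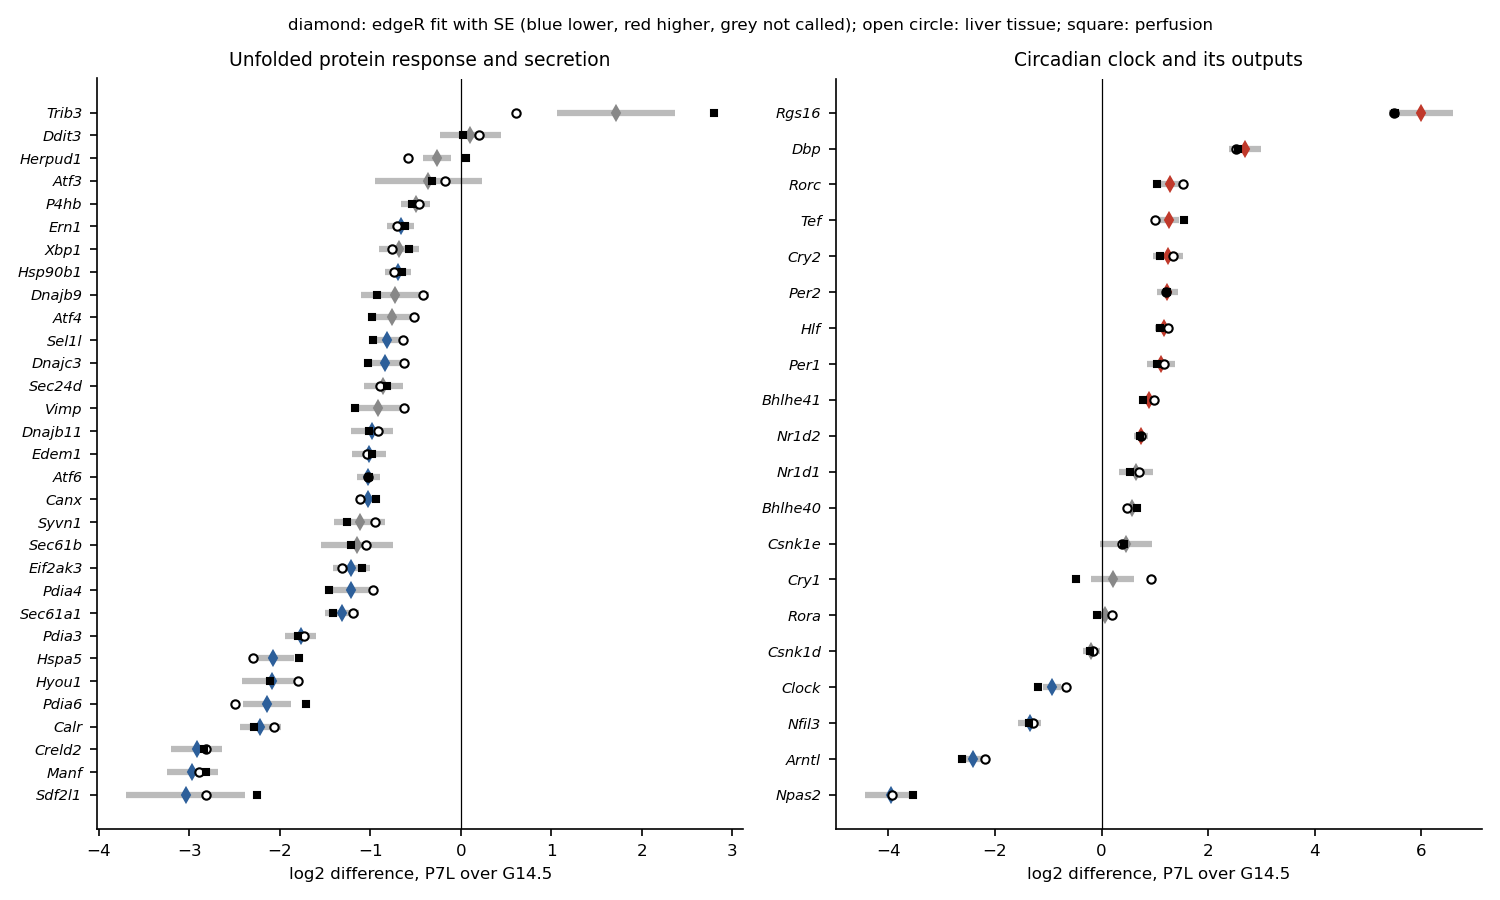
Log2 difference of P7L over G14.5 for the 31 tested genes of the unfolded protein response and secretion (left) and the 20 of the circadian clock and its outputs (right), with diamonds for the edgeR fit, grey bars for its SE, open circles for the liver tissue pair and squares for the perfusion pair (CPM + 0.5). On the left 29 of 31 genes are fitted below 0, and on the right Rgs16 and Dbp stand at the upper end and Npas2 and Arntl at the lower end.

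In each of the lists of plasma proteins, the main export of hepatocytes, more genes were called lower than higher. Abundant genes leaned the same way over all tested genes. At 1000 CPM or more in the higher stage 54 were lower and 24 higher, and at 100 to 1000 CPM 415 and 259. At 20 to 100 CPM 167 were lower and 211 higher. Whether plasma proteins differ from other genes of their level was not tested. The largest fold fall of a gene with a mean of 1000 CPM or more at G14.5 was that of Serpina6, which encodes corticosteroid-binding globulin, the plasma carrier of glucocorticoids. It stood at 3834 and 3625 CPM at G14.5 against 103 and 113 at P7L (log2 fold change -5.11 ± 0.13 SE, adjusted p = 1.51e-05), with 121 and 118 CPM in the G0 libraries. The P7L libraries lay near the G0 libraries, and the G14.5 libraries stood far above both. After thinning, reads of it were in 100% (95% interval 98.4 to 100) and 100% (95% interval 98.8 to 100) of nuclei at G14.5 and 88.1% (95% interval 83.8 to 91.6) and 87.5% (95% interval 83.2 to 91) at P7L. The median nucleus had 3544 and 3320.2 CPM at G14.5 against 47.7 and 45.9 at P7L. Of 13 tested plasma carriers, 1 was higher and 5 lower (0 higher and 3 to 4 lower without 1 library). Alb, albumin, was not called (9479.9 and 7307 CPM at G14.5 against 6551 and 7188 at P7L, adjusted p = 0.256), nor were the carriers of thyroid hormone and retinol, Ttr (0.45 ± 0.19, adjusted p = 0.215) and Rbp4 (0.22 ± 0.12, adjusted p = 0.309). Serpina7, thyroxine-binding globulin, was called lower at very low levels (1.91 and 3.87 against 0.0894 and 0.0378 CPM), and no fold is given for it.

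Among 16 tested serpins, the family of protease inhibitors to which Serpina6 belongs, 3 were higher and 8 lower (median -0.51). Serpina1e, an alpha-1-antitrypsin gene, stood at 685 and 527 CPM at G14.5 against 31.4 and 24.4 at P7L (log2 fold change -4.44 ± 0.21 SE), but near-identical copies of the gene can share its reads, so its level is uncertain. Serpinc1, antithrombin, stood at 2753 and 2333 CPM at G14.5 against 1023 and 977 at P7L (log2 fold change -1.34 ± 0.12 SE, adjusted p = 0.00103). Without 1 library the serpins gave 0 higher and 3 to 6 lower.

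Of 31 coagulation genes 3 were higher and 10 lower (median -0.40). Vwf, von Willebrand factor, which carries factor VIII and binds platelets, stood at 115 and 117 CPM at G14.5 against 1.04 and 1.11 at P7L (log2 fold change -6.76 ± 0.3 SE, adjusted p = 7.06e-05). It is known as a product of endothelial cells. Reads of Vwf were in 72.3% (95% interval 66 to 78.1) and 75.3% (95% interval 70.1 to 80.1) of nuclei at G14.5 and 5.1% (95% interval 2.88 to 8.28) and 7.77% (95% interval 4.99 to 11.4) at P7L, after thinning. The 12 endothelial markers, a list without Vwf, summed to between 16.6 and 25.8 CPM before TMM scaling in the 4 libraries, 0 of the 10 tested were called, and their part in the level of Vwf was not tested. All 3 fibrinogen chains fell, with Fgg at -1.5 ± 0.15, Fga at -1.19 ± 0.14 and Fgb at -1.16 ± 0.11 as log2 fold change ± SE. Fgb, the most abundant, stood at 1499.7 and 1726 CPM at G14.5 against 627 and 824 at P7L. F7 (-1.16 ± 0.12) and F10 (-1.01 ± 0.13), clotting factors that depend on vitamin K, fell, whereas F11 (0.74 ± 0.15), Proc (0.5 ± 0.11) and Hrg (0.75 ± 0.13) were the 3 higher genes. Without 1 library the list gave 0 to 1 higher and 6 to 8 lower.

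Acute phase proteins, which the liver makes in inflammation, had 2 of 25 genes higher and 10 lower (median -0.70; 2 higher and 6 to 7 lower without 1 library). Cp, ceruloplasmin, the copper-carrying ferroxidase of plasma, stood at 3425 and 3647 CPM at G14.5 against 396 and 377 at P7L (log2 fold change -3.19 ± 0.12 SE, adjusted p = 5.51e-05), and it overlaps Hps3 on the other strand. Itih4, an inter-alpha-trypsin inhibitor heavy chain, stood at 525 and 638 CPM at G14.5 against 84.3 and 94.8 at P7L (log2 fold change -2.7 ± 0.17 SE). Fgl1, a fibrinogen-like hepatokine, stood at 566 and 469 CPM at G14.5 against 69.2 and 85.4 at P7L (log2 fold change -2.76 ± 0.2 SE). The 2 higher genes were Hamp and Orm3. Hamp encodes hepcidin, the hormone that closes the iron exporter ferroportin, and stood at 205 and 134 CPM at G14.5 against 749.6 and 702 at P7L (log2 fold change 2.11 ± 0.22 SE, adjusted p = 0.00195), below the 1874 and 2397 CPM of the G0 libraries. Slc40a1, ferroportin itself, fell (99.3 and 118 against 42.4 and 49.6 CPM, log2 fold change -1.24 ± 0.19 SE), a call lost without G14.5 perfusion and without either P7L library. It stood within an iron and copper list of 2 higher and 6 lower genes of 23 (3 and 3 with library size alone, 1 to 2 higher and 2 to 3 lower without 1 library). Of 29 complement genes, 3 were higher and 6 lower (5 and 6 with library size alone, 1 higher and 3 to 5 lower without 1 library). C9 stood at 8.3 and 7.34 CPM at G14.5 against 96.7 and 114 at P7L (log2 fold change 3.76 ± 0.25 SE, adjusted p = 3.66e-04), while C3, the central component, fell (-0.83 ± 0.14, log2 fold change ± SE).

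**Figure D3:**
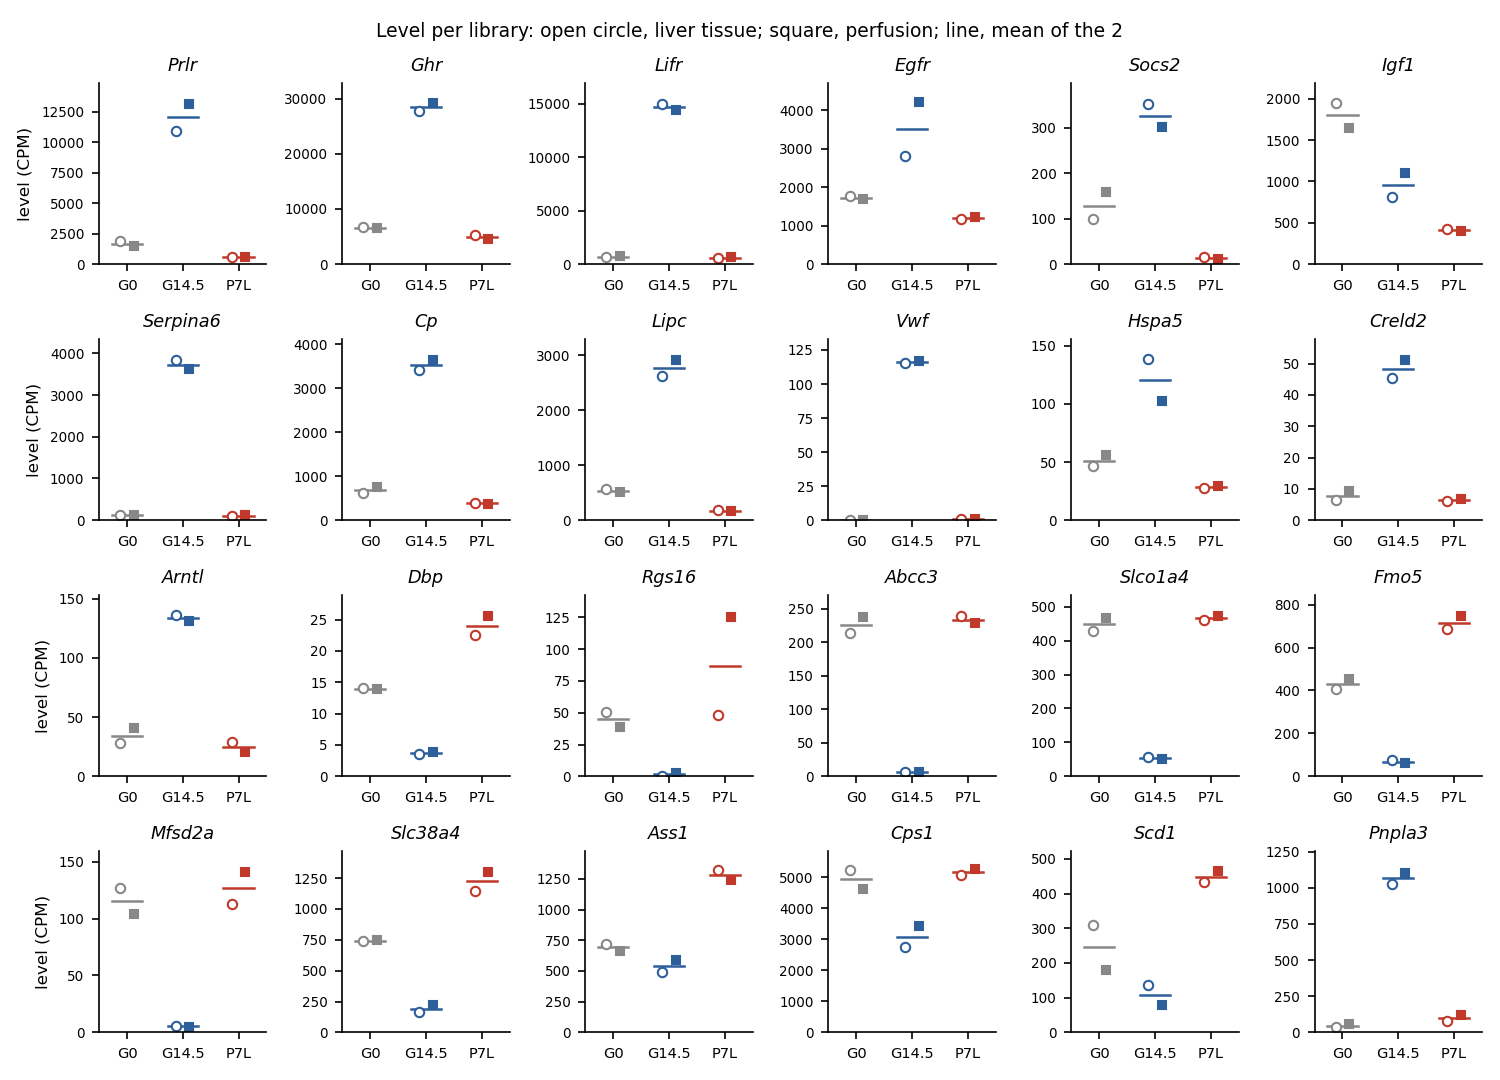
Level in CPM of 24 genes in each of the 6 libraries, with open circles for liver tissue, squares for perfusion and lines for the mean of the 2 libraries of a stage; each axis starts at 0. The receptors, Serpina6, Cp, Lipc and Vwf stand highest at G14.5 among these 3 stages, and Abcc3, Slco1a4 and Mfsd2a stand lowest there.

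Among enzymes that break down amino acids and carry their nitrogen into urea, more were called higher than lower at P7L, and most were not called. In the urea cycle 5 of 11 tested genes were higher and 0 lower (median 0.53), and in amino acid catabolism 16 of 45 were higher and 5 lower (median 0.53; 23 and 3 with library size alone). Cps1, the carbamoyl phosphate synthetase that starts the cycle, stood at 2749.9 and 3418 CPM at G14.5 against 5087 and 5276 at P7L (log2 fold change 0.75 ± 0.13 SE, adjusted p = 0.014). Ass1, argininosuccinate synthetase, stood at 489 and 586 CPM at G14.5 against 1323 and 1238 at P7L (log2 fold change 1.25 ± 0.13 SE, adjusted p = 0.00215), and Asl, the lyase of the next step, at 1166 and 1808 CPM at G14.5 against 2702 and 3897 at P7L (log2 fold change 1.16 ± 0.16 SE, adjusted p = 0.00562). The P7L libraries lay above the G14.5 libraries for all of them, and above the G0 libraries (722 and 662 CPM) for Ass1. The call of Ass1 held in every alternative, that of Asl was lost without P7L perfusion, and that of Cps1 was lost without G14.5 liver tissue and without either P7L library. Without 1 library the urea cycle gave 1 to 4 higher and 0 lower.

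Among the catabolic enzymes, Sds, serine dehydratase, stood at 49.7 and 56 CPM at G14.5 against 197 and 329.9 at P7L (log2 fold change 2.29 ± 0.22 SE, adjusted p = 0.00159). Prodh, proline dehydrogenase, stood at 17.7 and 28.2 CPM at G14.5 against 125 and 143 at P7L (log2 fold change 2.57 ± 0.21 SE, adjusted p = 8.00e-04). Both alanine aminotransferases were higher, Gpt2 (353 and 417 against 1094 and 1271 CPM, log2 fold change 1.62 ± 0.11 SE) and Gpt (29.1 and 35.1 against 98.1 and 134 CPM, log2 fold change 1.85 ± 0.2 SE). So was Tdo2, which opens the ring of tryptophan (log2 fold change 1.59 ± 0.14 SE). The 5 lower genes were Agxt (-1.94 ± 0.23), Cbs (-1.78 ± 0.21), Csad (-1.12 ± 0.27), Cdo1 (-1.01 ± 0.13) and Gcsh (-0.75 ± 0.17). Of these, Cdo1 and Csad lead from cysteine to taurine, and Cbs leads from homocysteine to cysteine. The calls of Csad and Gcsh were lost with library size alone and whichever of the 4 libraries was left out. That of Cdo1 was lost without P7L liver tissue, and those of Agxt and Cbs held in every alternative. Ahcy, which makes homocysteine, and Cth, which follows Cbs, were higher (1.44 ± 0.21 and 0.89 ± 0.12), within a one-carbon list of 6 higher and 2 lower genes of 21 (11 and 2 with library size alone, 1 to 5 higher and 2 lower without 1 library). Chka, choline kinase, was its other lower gene (569 and 708 against 99 and 113 CPM, log2 fold change -2.59 ± 0.13 SE). Without 1 library amino acid catabolism gave 7 to 10 higher and 2 to 3 lower.

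Some carriers that bring amino acids into the cell were higher too. Slc38a4, a sodium-coupled carrier of neutral amino acids, stood at 164 and 220.2 CPM at G14.5 against 1146 and 1301 at P7L (log2 fold change 2.68 ± 0.14 SE, adjusted p = 1.11e-04), and its median nucleus had 89.6 and 126 CPM at G14.5 against 1136 and 1239 at P7L. Slc7a2, a carrier of arginine and other cationic amino acids, stood at 341 and 405 CPM at G14.5 against 1533 and 1679 at P7L (log2 fold change 2.1 ± 0.2 SE, adjusted p = 0.00156). Slc16a10, a carrier of aromatic amino acids, stood at 897 and 760.5 CPM at G14.5 against 1838 and 1560.3 at P7L (log2 fold change 1.04 ± 0.12 SE). In this list of 27 carriers 6 were higher and 2 lower (3 to 5 higher and 2 lower without 1 library), and the lower ones were Slc16a1, a lactate and ketone carrier (log2 fold change -1.86 ± 0.2 SE), and Slc25a30, a mitochondrial carrier (178 and 211 against 9.11 and 8.4 CPM, log2 fold change -4.47 ± 0.2 SE).

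Of 31 tested genes of glucose, glycogen and fructose metabolism, 9 were higher and 3 lower (median 0.51; 15 and 3 with library size alone, 3 to 5 higher and 1 to 2 lower without 1 library). Ugp2, which makes the UDP-glucose used for glycogen, stood at 473 and 468 CPM at G14.5 against 1504 and 1565 at P7L (log2 fold change 1.71 ± 0.12 SE, adjusted p = 5.32e-04), and Gys2, liver glycogen synthase, at 130.5 and 206 CPM at G14.5 against 313 and 409 at P7L (log2 fold change 1.11 ± 0.22 SE). Khk, ketohexokinase, which phosphorylates fructose, stood at 37.6 and 58.9 CPM at G14.5 against 121 and 200 at P7L (log2 fold change 1.73 ± 0.23 SE). Slc37a4, the glucose-6-phosphate carrier of the endoplasmic reticulum, rose (log2 fold change 1.68 ± 0.19 SE), while G6pc, the phosphatase it feeds, fell (265 and 617 against 122 and 254 CPM, log2 fold change -1.21 ± 0.2 SE). Ldha, lactate dehydrogenase, fell (235 and 269 against 77.1 and 120.4 CPM, log2 fold change -1.4 ± 0.18 SE). Pck1, which governs gluconeogenesis, was not called (adjusted p = 0.405). Of 23 tested subunits of oxidative phosphorylation 2 were called, both higher, Sdhb (1.41 ± 0.21) and Atp5c1 (0.83 ± 0.17), and 21 were fitted above 0 (0 to 1 higher and 0 lower without 1 library).

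Of 32 genes of fatty acid and triglyceride synthesis 7 were higher and 8 lower, a balance that turned to 10 and 7 with library size alone. Among enzymes that make saturated and monounsaturated fatty acids 3 were higher, with Scd1, stearoyl-CoA desaturase, at 138 and 78.3 CPM at G14.5 against 434 and 464 at P7L (log2 fold change 2.13 ± 0.24 SE, adjusted p = 0.00262), Elovl6 at 204 and 313 CPM at G14.5 against 695 and 760.1 at P7L (log2 fold change 1.5 ± 0.24 SE, adjusted p = 0.0106) and Fasn, fatty acid synthase, at 28.2 and 43.4 CPM at G14.5 against 58.2 and 86.7 at P7L (log2 fold change 1.02 ± 0.2 SE, adjusted p = 0.0232). The call of Scd1 held in every alternative, that of Elovl6 was lost without P7L perfusion, and that of Fasn was lost whichever of the 4 libraries was left out. Acacb, an acetyl-CoA carboxylase, was lower (504 and 646 against 285 and 390 CPM, log2 fold change -0.77 ± 0.18 SE), a call lost in the same 4 fits and with library size alone. Thrsp, a protein that promotes fatty acid synthesis, was lower too (2979.7 and 4656 against 1259.9 and 2367 CPM, log2 fold change -1.11 ± 0.14 SE), and its call was lost without the term for preparation and in DESeq2. Among enzymes that desaturate and extend polyunsaturated fatty acids 4 were lower. Fads2 stood at 719 and 964 CPM at G14.5 against 302 and 265 at P7L (log2 fold change -1.57 ± 0.18 SE, adjusted p = 0.00264) and Fads1 at 191 and 230.1 CPM at G14.5 against 73 and 74.2 at P7L (log2 fold change -1.52 ± 0.21 SE, adjusted p = 0.00582). Elovl2 stood at 682 and 679 CPM at G14.5 against 192 and 210.4 at P7L (log2 fold change -1.75 ± 0.19 SE, adjusted p = 0.00237) and Elovl5 at 485 and 571 CPM at G14.5 against 173 and 185 at P7L (log2 fold change -1.56 ± 0.23 SE, adjusted p = 0.00772). The P7L values of these 4 genes lay below both G14.5 values, the same values from which they were called. The grouping of enzymes within the list was made after the values were seen. The call of Elovl5 was lost with the authors' scaled values. Mfsd2a, a carrier of lysophospholipids with polyunsaturated chains, rose the most, with 5.3 and 5.1 CPM at G14.5 against 113 and 140.5 at P7L (log2 fold change 4.61 ± 0.23 SE, adjusted p = 9.92e-05). Pnpla3, a lipid droplet hydrolase, stood at 1029 and 1105 CPM at G14.5 against 81.4 and 117 at P7L (log2 fold change -3.46 ± 0.18 SE, adjusted p = 1.11e-04). Lpin1, a phosphatidate phosphatase, rose (196 and 256 against 762 and 862 CPM, log2 fold change 1.85 ± 0.14 SE). Without 1 library the list gave 3 to 5 higher and 6 to 7 lower.

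In the other lipid lists, single genes stood out against small counts. Lipc, hepatic lipase, which trims lipoproteins, stood at 2628 and 2912 CPM at G14.5 against 179 and 169 at P7L (log2 fold change -3.99 ± 0.13 SE, adjusted p = 3.62e-05). Its list of apolipoproteins and lipoprotein handling had 3 of 21 genes higher and 5 lower (4 and 3 with library size alone, 1 to 2 higher and 1 to 3 lower without 1 library). Abcg5 and Abcg8, the 2 subunits that pump sterols into bile, were both higher (1.78 ± 0.18 and 1.07 ± 0.23). In cholesterol synthesis and uptake 2 of 25 genes were higher and 3 lower. The 3 lower genes were Hmgcs1, the synthase that makes HMG-CoA (524 and 713 against 206 and 139 CPM, log2 fold change -1.87 ± 0.24 SE), Insig1 (log2 fold change -1.42 ± 0.11 SE) and Sc5d (log2 fold change -0.88 ± 0.13 SE). Without 1 library the list gave 0 to 1 higher and 2 to 3 lower. The calls of Hmgcs1 and Insig1 held in every alternative. Fatty acid oxidation and ketogenesis had 5 of 35 genes higher and 4 lower (10 and 4 with library size alone, 2 to 4 higher and 3 lower without 1 library). Acsl1, a long-chain acyl-CoA synthetase, fell (1576 and 2027 against 478 and 501 CPM, log2 fold change -1.87 ± 0.14 SE), and Acaa1b, a peroxisomal thiolase, rose (102 and 105 against 333 and 352 CPM, log2 fold change 1.72 ± 0.13 SE).

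Of 15 tested transporters of bile acids and organic anions, 6 were higher at P7L, 2 lower and 7 not called (4 to 5 higher and 1 lower without 1 library). Abcc3, which pumps conjugates back into the blood, stood at 6.65 and 5.79 CPM at G14.5 against 238 and 229 at P7L (log2 fold change 5.23 ± 0.18 SE, adjusted p = 3.62e-05). After thinning, reads of Abcc3 were in 21.9% (95% interval 16.6 to 27.9) and 17.7% (95% interval 13.5 to 22.5) of nuclei at G14.5 and 99.7% (95% interval 98.1 to 100) and 100% (95% interval 98.8 to 100) at P7L. The groups were far apart, and the median nucleus had 0 CPM in both G14.5 libraries and 213 and 198 CPM in the P7L libraries. Among uptake carriers, Slco1a4 stood at 57.2 and 50.5 CPM at G14.5 against 460.3 and 473 at P7L (log2 fold change 3.12 ± 0.14 SE, adjusted p = 7.06e-05) and Slco1b2 at 583 and 657 CPM at G14.5 against 1904 and 1639.8 at P7L (log2 fold change 1.51 ± 0.12 SE, adjusted p = 8.18e-04). Slc10a1, the sodium-dependent bile acid carrier NTCP, stood at 232 and 250.2 CPM at G14.5 against 596 and 710 at P7L (log2 fold change 1.43 ± 0.12 SE, adjusted p = 7.64e-04). Abcb11, the bile salt export pump on the canalicular face, fell (1168 and 1265 against 560.4 and 597 CPM, log2 fold change -1.07 ± 0.11 SE, adjusted p = 0.00191), as did Slc22a7, an organic anion carrier (log2 fold change -2.25 ± 0.41 SE). For bile acid synthesis 2 of 17 genes were higher and 2 lower (4 and 2 with library size alone). Cyp7a1, its rate-limiting enzyme, was not called (405 and 425 against 413 and 297 CPM, adjusted p = 0.642), and Cyp2c70, which makes muricholic acids in mice, fell (830 and 817 against 112 and 137 CPM, log2 fold change -2.73 ± 0.15 SE, adjusted p = 1.72e-04).

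Drug and steroid enzymes moved in both directions. Fmo5, a flavin monooxygenase, stood at 73.8 and 62.5 CPM at G14.5 against 687 and 747 at P7L (log2 fold change 3.39 ± 0.15 SE, adjusted p = 7.06e-05). Cyp2a5 rose (49.1 and 55.1 against 234 and 209.8 CPM, log2 fold change 2.09 ± 0.15 SE), and so did Cyp2b10 (14.1 and 12.9 against 48.9 and 74.6 CPM, log2 fold change 2.19 ± 0.29 SE). Nr1i3 (CAR), a nuclear receptor that induces Cyp2b10, was higher as well (57.6 and 47.4 against 160.2 and 171 CPM, log2 fold change 1.66 ± 0.18 SE, adjusted p = 0.00216). Cyp2c69 stood at 314 and 275 CPM at G14.5 against 27.4 and 25.9 at P7L (log2 fold change -3.47 ± 0.14 SE) and Cyp3a11 at 136 and 83.5 CPM at G14.5 against 42.6 and 40.2 at P7L (log2 fold change -1.38 ± 0.22 SE). Reads of the Cyp2c and Cyp3a families, and of the Sult2a family, can be split among near-identical copies, so these levels are uncertain. Sulfotransferases and glucuronosyltransferases had 8 of 24 genes higher and 3 lower (3 to 7 higher and 1 to 3 lower without 1 library). Sult1d1, a sulfotransferase of catecholamines and phenols, stood at 13.1 and 11.7 CPM at G14.5 against 85.5 and 84.2 at P7L (log2 fold change 2.77 ± 0.19 SE), and Sult1a1, the phenol sulfotransferase, at 117 and 112 CPM at G14.5 against 287 and 363 at P7L (log2 fold change 1.5 ± 0.15 SE). Sult4a1, a family member known from brain, stood at 62.4 and 73.6 CPM at G14.5 against 1.1 and 2.52 at P7L (log2 fold change -5.31 ± 0.4 SE, adjusted p = 6.27e-04). Glutathione transferases had 4 of 24 higher and 0 lower (1 to 2 higher and 0 lower without 1 library), led by Gstt2 (56.1 and 57.2 against 191 and 232 CPM, log2 fold change 1.9 ± 0.17 SE). Hsd17b13, a lipid droplet protein, rose (46.4 and 65.1 against 261 and 348 CPM, log2 fold change 2.45 ± 0.16 SE). Hsd17b2, which inactivates estradiol and testosterone, fell (1029.9 and 1186 against 454 and 407 CPM, log2 fold change -1.36 ± 0.13 SE).

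Genes known to differ between female and male liver were called in both directions. Of 32 tested female-biased genes 6 were higher and 10 lower, and of 24 male-biased genes 1 was higher and 2 lower (2 and 2 with library size alone). Without 1 library the female-biased genes gave 1 to 5 higher and 5 to 9 lower and the male-biased genes 0 higher and 2 lower. Cux2, a female-biased repressor, stood at 658 and 731 CPM at G14.5 against 178 and 256 at P7L (log2 fold change -1.68 ± 0.21 SE), and A1bg, a female-biased plasma protein, at 243 and 221 CPM at G14.5 against 32.8 and 44.3 at P7L (log2 fold change -2.58 ± 0.26 SE). Tox, which is female-biased too, rose (685 and 633 against 1261 and 1197 CPM, log2 fold change 0.9 ± 0.1 SE). Prlr, Cyp2c69 and Cyp2b10 are counted among the female-biased genes, and Egfr and Serpina1e among the male-biased genes, with the directions given above.

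Transcription factors that define the hepatocyte were lower where called, with a single exception. Of 25 tested, 6 were lower and 1 higher (Klf15, 0.62 ± 0.15), and without 1 library 0 higher and 2 to 4 lower. Hnf4a, the central factor of hepatocyte identity, stood at 334 and 415 CPM at G14.5 against 200.1 and 241 at P7L (log2 fold change -0.76 ± 0.13 SE, adjusted p = 0.0137), and its call was lost whichever of the 4 libraries was left out. Foxa3 stood at 225 and 201 CPM at G14.5 against 58.7 and 74.3 at P7L (log2 fold change -1.66 ± 0.24 SE, adjusted p = 0.0073) and Gata6 at 79.8 and 69.5 CPM at G14.5 against 20.9 and 18.1 at P7L (log2 fold change -1.94 ± 0.21 SE, adjusted p = 0.00215), and both held in every alternative. Of 28 nuclear receptors 7 were higher and 2 lower (median 0.45; 13 and 2 with library size alone, 2 to 5 higher and 1 to 2 lower without 1 library). Esr1, the estrogen receptor, fell (527 and 593 against 228 and 275 CPM, log2 fold change -1.16 ± 0.13 SE, adjusted p = 0.00255).

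In the fit of all 6 libraries, the circadian clock list held the largest share of higher genes among the 45 lists. That rank was lost whichever of the 4 libraries was left out. Of 20 tested, 10 were higher and 4 lower (median 0.69; 3 to 5 higher and 2 to 4 lower without 1 library). Activators of the clock were lower. Arntl (BMAL1) stood at 136 and 131 CPM at G14.5 against 29.3 and 20.9 at P7L (log2 fold change -2.41 ± 0.27 SE, adjusted p = 0.0027), its partner Clock at 152 and 199 CPM at G14.5 against 96 and 86.9 at P7L (log2 fold change -0.93 ± 0.17 SE) and Npas2, which can replace Clock, at 58.8 and 49.9 CPM at G14.5 against 3.39 and 3.82 at P7L (log2 fold change -3.95 ± 0.49 SE, adjusted p = 0.00391). Nfil3, a repressor at D-box elements, was the fourth (log2 fold change -1.34 ± 0.22 SE). Their repressors were higher, with log2 fold changes ± SE of 1.12 ± 0.26 for Per1, 1.23 ± 0.2 for Per2, 1.25 ± 0.28 for Cry2 and 0.73 ± 0.13 for Nr1d2, and the call of each of these 4 was lost whichever of the 4 libraries was left out. The activators at D-box elements rose too. Dbp stood at 3.52 and 3.94 CPM at G14.5 against 22.5 and 25.7 at P7L (log2 fold change 2.69 ± 0.3 SE, adjusted p = 0.00264), Tef at 86.1 and 65.9 CPM at G14.5 against 173 and 194 at P7L (log2 fold change 1.28 ± 0.18 SE) and Hlf at 84.4 and 103 CPM at G14.5 against 201 and 222 at P7L (log2 fold change 1.17 ± 0.16 SE). Rgs16, a regulator of G protein signalling whose level in liver follows the clock and feeding, stood at 0.586 and 2.28 CPM at G14.5 against 48.6 and 126 at P7L (log2 fold change 5.99 ± 0.6 SE, adjusted p = 0.00178). Reads of it were in 3.12% (95% interval 1.26 to 6.33) and 6.33% (95% interval 3.86 to 9.71) of nuclei at G14.5 and 73.8% (95% interval 68.4 to 78.7) and 93.2% (95% interval 89.8 to 95.8) at P7L, after thinning. The 2 P7L libraries differed by more than 2-fold, yet both lay far above the G14.5 libraries. Clock genes change over the day, and the sources used here give no time of day for either stage. The part of time of day in these differences cannot be told apart from that of the stage. The same limit holds for any other gene named here whose level follows the time of day. The calls of Arntl, Npas2, Dbp and Rgs16 held in every alternative.

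Among zonation genes, whose levels differ between the portal and the central end of the lobule, more were called higher than lower on both sides. Periportal genes had 8 of 24 higher and 4 lower and pericentral genes 5 of 26 higher and 1 lower (12 and 1 with library size alone), with medians of 0.34 and 0.44. Leaving out 1 library, the periportal list gave 4 to 7 higher and 1 to 4 lower, and the pericentral list 2 higher and 0 to 1 lower. Etnppl, a periportal phospholyase, stood at 7.01 and 15.4 CPM at G14.5 against 84.2 and 137 at P7L (log2 fold change 3.34 ± 0.38 SE). Of 47 genes of DNA replication and mitosis, 1 was higher (Rad51b, 2.98 ± 0.54) and 1 lower (E2f8, -2.34 ± 0.44), against 3 and 1 with library size alone. The proliferation marker Mki67 stood at 14.6 and 8.88 CPM at G14.5 against 5.86 and 4.16 at P7L (adjusted p = 0.296) and Top2a at 20.4 and 7.9 CPM at G14.5 against 7.15 and 3.6 at P7L (adjusted p = 0.0979), and neither was called. Ribosome biogenesis had 0 of 22 genes called in edgeR's test, with 3 at an unadjusted p under 0.05, 0 called by limma-voom and 3 by DESeq2 (2 higher, 1 lower). Actb, cytoplasmic actin, fell (234 and 231 against 108 and 105 CPM, log2 fold change -1.13 ± 0.15 SE), and Peg3, an imprinted gene, fell (295 and 294 against 27.3 and 24.5 CPM, log2 fold change -3.51 ± 0.18 SE, adjusted p = 1.04e-04).

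**Figure D4:**
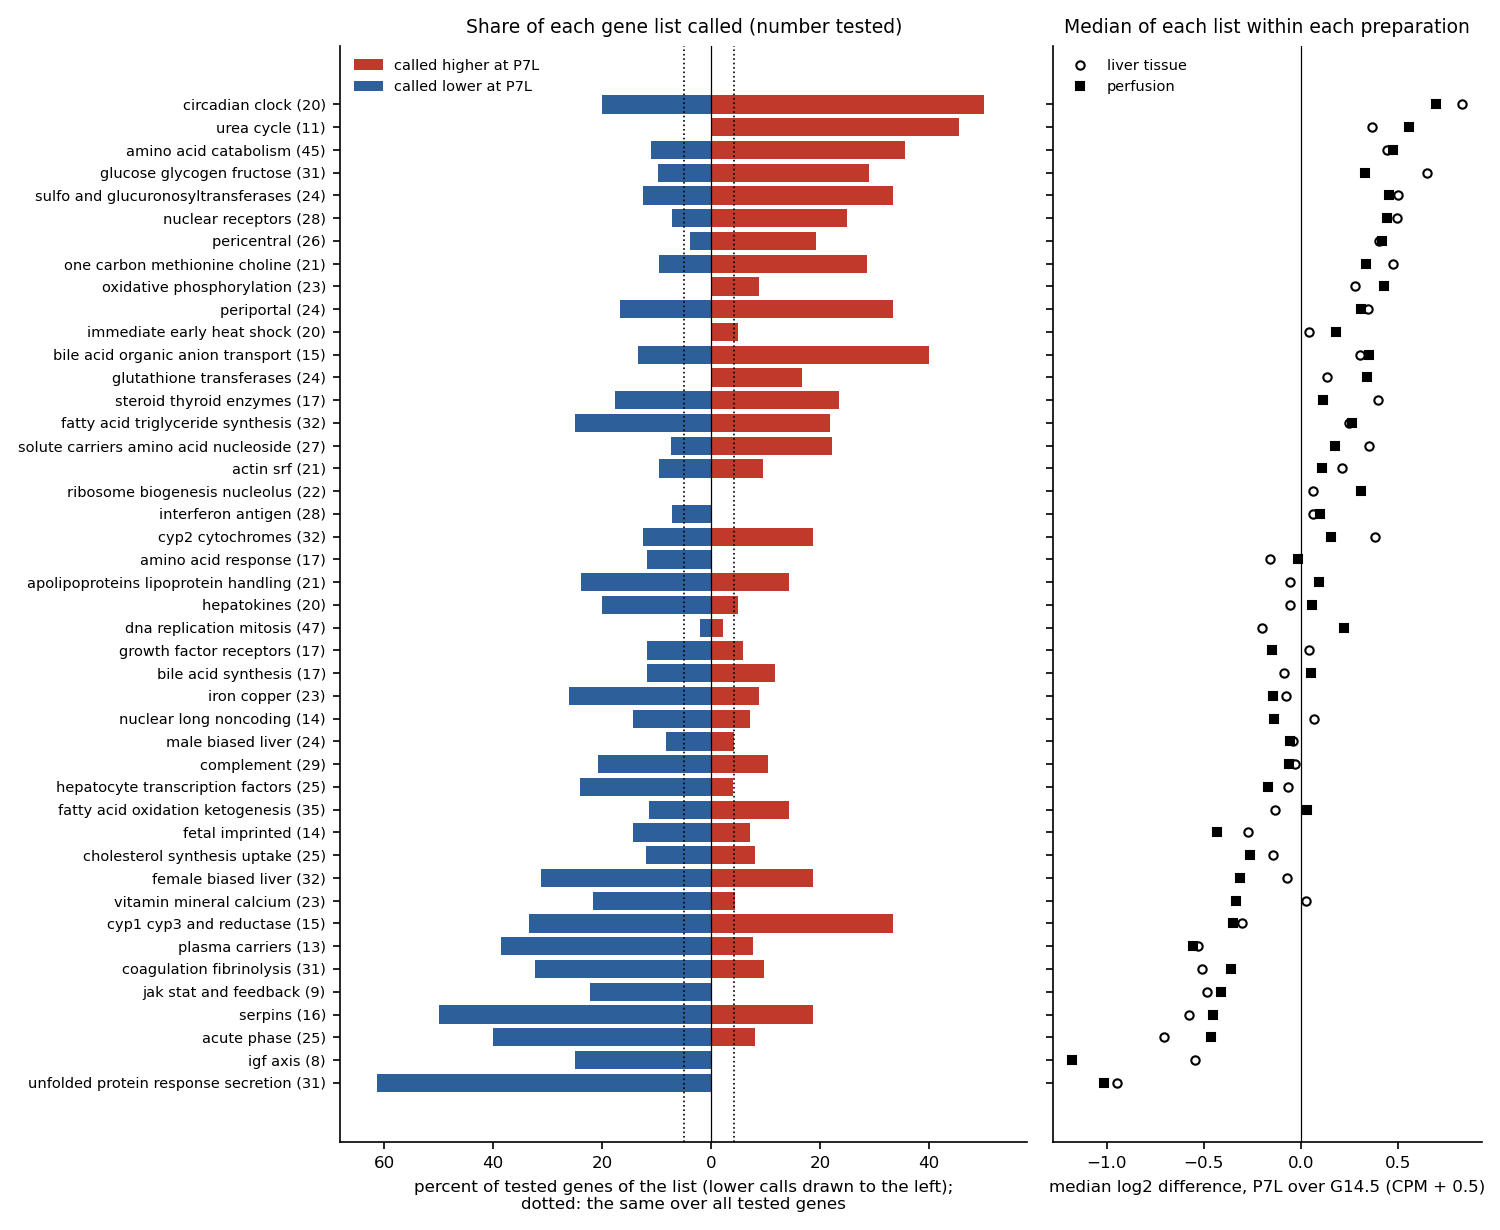
Left, the share of tested genes called higher (red, right) or lower (blue, left) in each list of at least 8 tested genes, ordered by the median log2 fold change, with dotted lines at the shares over all 15015 genes (4.2% and 5.06%). Right, the median log2 difference of each list within the liver tissue pair (circles) and the perfusion pair (squares). The unfolded protein response stands at the lower end (19 of 31 lower, 0 higher) and the circadian clock at the upper end (10 of 20 higher, 4 lower).

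The genes with the largest changes lay mostly outside these lists. They were ranked by log2 fold change among called genes that reached 20 CPM in each library of the stage where they were higher. Crybb3, a crystallin known from the lens, fell the most of those reported, with 34.5 and 50.9 CPM at G14.5 against 0.279 and 0.0698 at P7L (log2 fold change -8.29 ± 0.79 SE, adjusted p = 0.00151). Clec2h, a C-type lectin, stood at 58.1 and 106 CPM at G14.5 against 0.35 and 1.71 at P7L (log2 fold change -6.74 ± 0.56 SE). Efhb, a gene of motile cilia, stood at 27.8 and 21 CPM at G14.5 against 0.297 and 0.276 at P7L (log2 fold change -6.39 ± 0.46 SE), and Dnah11, an axonemal dynein heavy chain, stood at 411 and 552 CPM at G14.5 against 6.95 and 14 at P7L (log2 fold change -5.56 ± 0.3 SE). Dnah11 overlaps Cdca7l on the other strand. Adcy1, an adenylyl cyclase, stood at 52.9 and 59.2 CPM at G14.5 against 1.05 and 1.37 at P7L (log2 fold change -5.52 ± 0.54 SE), and Slc41a2, a magnesium carrier, at 523 and 634 CPM at G14.5 against 23.1 and 19.6 at P7L (log2 fold change -4.77 ± 0.2 SE). Nckap5 (-5.52 ± 0.6) and Fabp12, a fatty acid binding protein (-4.66 ± 0.37), completed the lower genes. Several of these were found in a part of the nuclei only, as for Crybb3, with reads in 48.2% (95% interval 41.5 to 55) and 53.3% (95% interval 47.5 to 59.1) of nuclei at G14.5 and 1.7% (95% interval 0.554 to 3.92) and 0.338% (95% interval 0.009 to 1.87) at P7L.

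Among the higher genes outside the lists, Mme, the membrane peptidase neprilysin, stood at 1.59 and 3.57 CPM at G14.5 against 67.4 and 71.1 at P7L (log2 fold change 4.85 ± 0.35 SE, adjusted p = 5.32e-04). Ak4, a mitochondrial adenylate kinase, stood at 7.32 and 8.8 CPM at G14.5 against 115 and 156 at P7L (log2 fold change 4.07 ± 0.2 SE, adjusted p = 9.18e-05). Nxph1, a neurexophilin, stood at 3.09 and 1.21 CPM at G14.5 against 43.9 and 40.5 at P7L (log2 fold change 4.4 ± 0.37 SE) and Prex2, a Rac exchange factor, at 3.17 and 4.07 CPM at G14.5 against 72.9 and 48.5 at P7L (log2 fold change 4.04 ± 0.32 SE). Hcls1, known from blood cells, stood at 1.14 and 1.14 CPM at G14.5 against 22.3 and 22 at P7L (log2 fold change 4.27 ± 0.42 SE). The macrophage, lymphoid and neutrophil lists had 0 called genes. However, 11 of 12 markers of T and natural killer cells and 10 of 10 of neutrophils were under 1 CPM in each library. The remaining T cell marker, Cd4, stood at 2.61 and 1.5 CPM at G14.5 against 4.95 and 6.55 at P7L before TMM scaling. The part of blood cells in the level of Hcls1 was not tested. Capn11 (4.15 ± 0.37) and Wdfy4 (3.61 ± 0.47), which overlaps Lrrc18 on the other strand, followed. The calls of all these leading genes held in every alternative. By absolute level, the largest gain outside the lists was that of Dpyd, which degrades pyrimidines (4999 and 5810.1 CPM at G14.5 against 8028 and 8499 at P7L, log2 fold change 0.61 ± 0.12 SE). The call of Dpyd was lost without G14.5 liver tissue and without either P7L library. Large losses outside the lists were those of Cped1 (3985 and 4100 against 597 and 687 CPM, log2 fold change -2.66 ± 0.11 SE) and B3galt1, a galactosyltransferase (4021 and 4931 against 1054 and 1138 CPM, log2 fold change -2.02 ± 0.11 SE).

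**Figure D5:**
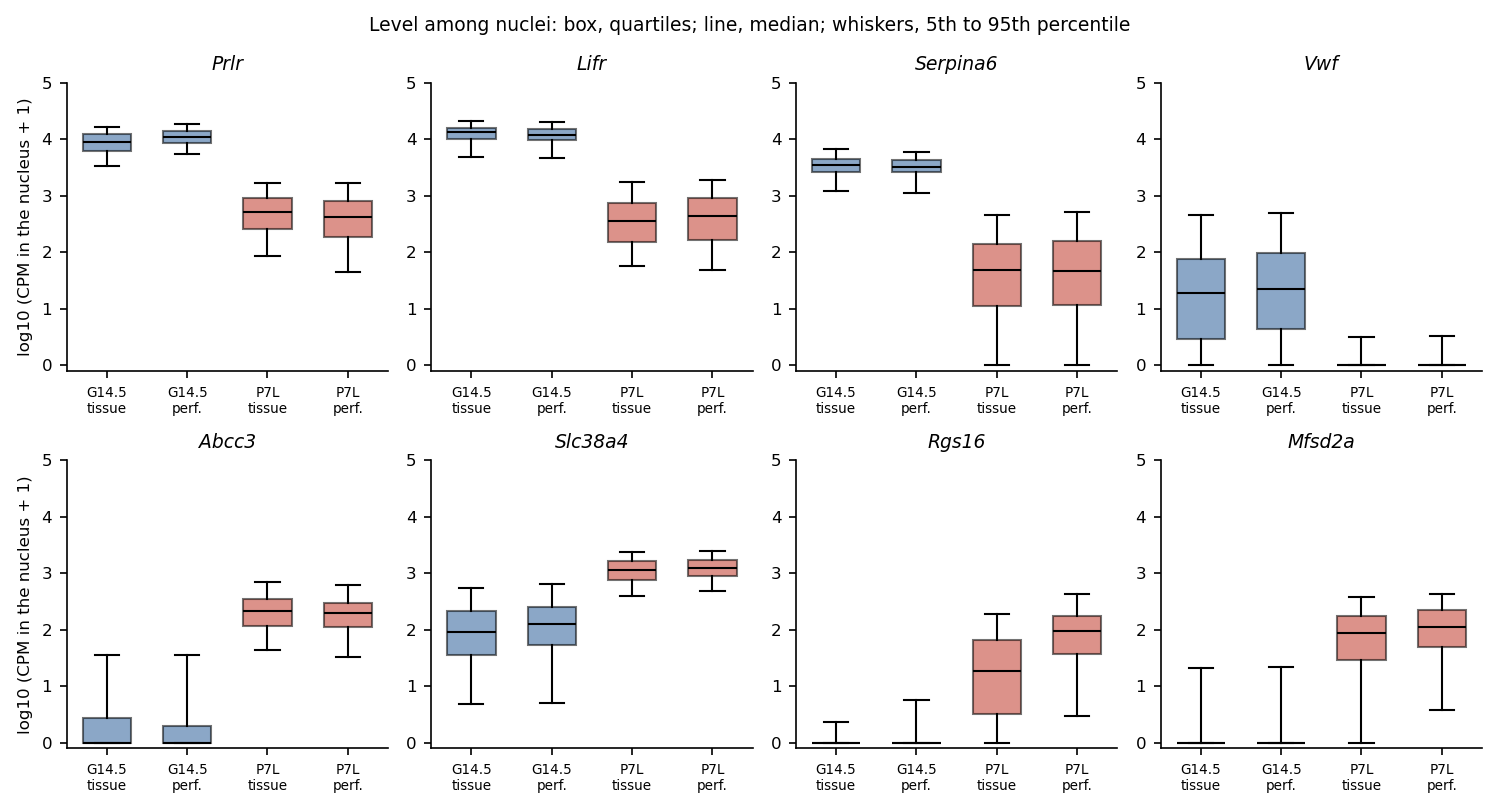
Level among nuclei, as log10 of CPM in the nucleus plus 1, for 4 genes that fell (top) and 4 that rose (bottom) in each of the 4 libraries; boxes are quartiles, lines medians and whiskers the 5th and 95th percentiles. Prlr, Lifr and Serpina6 shifted as whole distributions, and for Vwf at P7L and for Abcc3, Rgs16 and Mfsd2a at G14.5 the median nucleus had 0 reads.

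The promoter windows of leading higher and lower genes are shown so that the sequence beside these changes can be read. They are the 2 highest and 2 lowest genes in this ranking that have a window in the table, here Rgs16 (chr1:153740103-153740402, plus strand) and Mme (chr3:63294961-63295260, plus strand, the first of 3 windows) among higher genes and Crybb3 (chr5:113081535-113081834, minus strand) and Clec2h (chr6:128662135-128662434, plus strand) among lower ones. Capitals mark matches to the STAT5 motif TTCNNNGAA, the E-box CACGTG, the D-box TTATGTAA, the sterol element TCACNCCAC and the CCAAT box, on either strand.
Rgs16: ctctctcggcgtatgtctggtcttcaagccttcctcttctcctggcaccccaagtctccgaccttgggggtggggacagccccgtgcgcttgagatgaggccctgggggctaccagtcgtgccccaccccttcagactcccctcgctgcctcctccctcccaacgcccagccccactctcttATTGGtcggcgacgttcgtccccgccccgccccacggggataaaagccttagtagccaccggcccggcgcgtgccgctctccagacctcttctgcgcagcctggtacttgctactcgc
Mme: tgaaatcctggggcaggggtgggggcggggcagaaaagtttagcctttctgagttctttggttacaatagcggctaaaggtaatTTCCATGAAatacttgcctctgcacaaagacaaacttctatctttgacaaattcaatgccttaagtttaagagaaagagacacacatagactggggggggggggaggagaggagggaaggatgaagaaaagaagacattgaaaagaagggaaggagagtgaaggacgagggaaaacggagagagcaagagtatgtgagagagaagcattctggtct
Crybb3: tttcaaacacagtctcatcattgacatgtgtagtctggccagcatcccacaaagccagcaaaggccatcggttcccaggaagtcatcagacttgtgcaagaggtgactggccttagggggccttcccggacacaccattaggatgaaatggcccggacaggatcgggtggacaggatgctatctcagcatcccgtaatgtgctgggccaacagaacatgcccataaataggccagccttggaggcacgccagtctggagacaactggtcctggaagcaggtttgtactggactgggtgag
Clec2h: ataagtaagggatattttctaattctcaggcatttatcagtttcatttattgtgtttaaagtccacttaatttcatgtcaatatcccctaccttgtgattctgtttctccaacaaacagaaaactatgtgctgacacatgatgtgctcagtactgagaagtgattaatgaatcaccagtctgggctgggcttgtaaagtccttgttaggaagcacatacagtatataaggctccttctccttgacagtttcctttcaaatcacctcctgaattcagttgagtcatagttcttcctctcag
Rgs16 has 1 CCAAT box on the minus strand, Mme has 1 STAT5 motif, and the windows of Crybb3 and Clec2h hold none of these letters. Over all windows, the E-box was in 64 of 442 of higher genes, 54 of 543 of lower genes (9.94%) and 1032 of 10600 of all tested genes (9.74%). The D-box was in 7, 2 and 62 of these, and the sterol element in 10, 7 and 115. For the E-box, the D-box and the sterol element the share was larger among higher genes than among lower or all tested genes. This was not so for the STAT5 motif and the CCAAT box, whose shares are given above. Of the 10 higher clock genes 8 had a window, and 3 of these held the E-box. These shares are descriptions with no test, and a window without a match says only that these letters are not in it.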

How the data were processed

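Single hepatocyte nuclei were sequenced by Smart-seq3xpress. The deposited table of raw read counts per gene and nucleus was made by the authors. The submitters' processing notes name GRCm38 (mm10) and, as tools, HISAT2 2.1.0, Trimmomatic 0.39 and featureCounts 1.5.3. The strand setting and nucleus filters are not given in the sources used here. A second table deposited by the authors holds TPM-like values, which the values themselves show to be scaled to 100000 per nucleus over all genes but Alb, Apoa2 and Fabp1. It was used only as an alternative, with limma on log2(mean + 1) or log2(mean + 0.1).

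The counts of a library's nuclei were added up, with no nucleus left out and no doublet caller run, since nuclei were sequenced in separate wells. Reads were not tagged as molecules in these tables, so intervals (95%, exact Clopper-Pearson) cover counting error only. Genes passed edgeR's filterByExpr and were read in 5% or more of the nuclei of 2 or more libraries. edgeR 4.0.16 (R 4.3.3) fitted all 6 libraries by quasi-likelihood on TMM-scaled counts with stage and preparation as terms and 2 residual degrees of freedom, and p-values were adjusted by Benjamini-Hochberg over 15015 genes. Alternatives were other scalings, filters, libraries, thinning of nuclei, no block, limma-voom (limma 3.58.1), DESeq2 1.42.0 and leaving out each library. The script was tested on simulated data.

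Genes were named by a rule. It took the 12 higher and 12 lower genes with the largest fold change among called genes that moved alike in both preparations and, in each library of the stage where they were higher, reached 20 CPM and 20% of nuclei. It added the 8 higher and 8 lower with the largest change in mean CPM, gene models without a name left out, and, from each list, the 4 members of smallest p. Further members are named to account for counts, chosen after their values were seen. Results for a few genes of the rule and lists are not reported here. The comparison and the lists were chosen with earlier results of these data known. Promoters are RefSeq windows of GRCm38.p6, and gene positions are from GENCODE M21.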

Additional observations from a re-analysis of the deposited data

Results flagged for a closer look

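For a pair of gene lists the median log2 difference of P7L over G14.5 had opposite signs in the 2 preparations and differed by more than 0.3. For DNA replication and mitosis it was -0.20 in the liver tissue pair and 0.22 in the perfusion pair. For genes of vitamins, minerals and calcium it was 0.025 in the liver tissue pair and -0.33 in the perfusion pair. With 1 library per stage and preparation the difference between preparations was not tested.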

How the results depend on the processing

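Of the 1390 calls, 315 (127 higher, 188 lower) held in all 17 alternatives. Replacing TMM by library size alone gave 1048 higher genes. It turned the balance of higher to lower genes in fatty acid and triglyceride synthesis (10 and 7) and lipoprotein handling (4 and 3). It moved CYP2 cytochromes to 12 and 2, growth factor receptors to 3 and 2, hepatokines to 2 and 3 and vitamin, mineral and calcium genes to 3 and 3. Counts of other lists that it moved by over 1.5 times stand beside them above where a result rests on them. The unfolded protein response then had 15 lower genes, and with the authors' scaled values and limma 9 (pseudocount 1) or 12 (pseudocount 0.1). With pseudocount 1 these values gave 442 lower genes in all. DESeq2 called 2631 genes, 1315 higher and 1316 lower. Fitting the 4 libraries of G14.5 and P7L alone called 2423 genes, 1182 higher and 1241 lower, of which 1376 were among the 1390. Fits that left out 1 library, of G0 included, called 421 to 2431 genes, with 168 to 1126 higher and 253 to 1305 lower, the fewest without P7L perfusion and the most without G0 perfusion. Such a fit leaves 1 library in an arm, whose spread is assumed to be that of the other groups. Without the replicate block, that is without the term for preparation, 1597 genes were called, 711 higher and 886 lower, and 1321 of the 1390 remained. Here the replicate number stands for the preparation, not for an animal.

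Over the alternatives, 352 named genes gave 5962 log2 fold changes, of which 5051 kept direction and call, 801 kept direction but lost the call, 104 gained a call and 6 changed sign. The 6 were of genes with no call, Lepr (-0.068 without G14.5 perfusion to 0.99 without G14.5 liver tissue), Socs3 (-0.88 without G14.5 perfusion to 0.37 without G14.5 liver tissue), Cyp7a1 (-0.66 without P7L liver tissue to 0.16 without P7L perfusion) and Jak2 (0.053 with library size alone, and 0.074 and 0.089 with the authors' values and pseudocounts 1 and 0.1). Depth per nucleus differed between libraries, and unthinned the median nucleus had 7226 and 7261 genes at G14.5 and 7392 and 7854.5 at P7L. With 2 libraries per stage and no animal named, no spread between animals could be estimated.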

Other observations

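Genes outside the lists that were called in every alternative hold further members of the secretory route. They were chosen after their values were seen and carry no count of their own. Rrbp1, a ribosome-binding protein of the endoplasmic reticulum, stood at 695 and 973 CPM at G14.5 against 196 and 203 at P7L (log2 fold change -2.05 ± 0.15 SE). Ssr3, a subunit of the translocon-associated complex, stood at 111 and 98.9 CPM at G14.5 against 28.2 and 31.1 at P7L (log2 fold change -1.82 ± 0.19 SE). Between the endoplasmic reticulum and the Golgi, Copz1, a coat protein of COPI vesicles, fell (370.1 and 366 against 134 and 131 CPM, log2 fold change -1.48 ± 0.13 SE), as did Stx18, a fusion protein of the endoplasmic reticulum (389.5 and 382 against 102 and 106 CPM, log2 fold change -1.89 ± 0.13 SE). Creb3l2, a membrane-bound transcription factor of secretory genes, fell too (433 and 483 against 129 and 151 CPM, log2 fold change -1.71 ± 0.14 SE). All of these had both P7L libraries below both G14.5 libraries, the same libraries from which they were called.

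Signalling genes outside the lists moved in both directions. Nedd9, a docking protein at adhesion sites, stood at 474 and 623 CPM at G14.5 against 19 and 26.1 at P7L (log2 fold change -4.61 ± 0.23 SE, adjusted p = 1.03e-04). Nrp1, a co-receptor of semaphorins and vascular growth factors, stood at 1455 and 1533 CPM at G14.5 against 318 and 243 at P7L (log2 fold change -2.42 ± 0.14 SE), and Lgr4, a receptor of R-spondins, at 1334 and 1492 CPM at G14.5 against 482 and 469 at P7L (log2 fold change -1.57 ± 0.11 SE). Nt5e, the surface enzyme that forms adenosine, fell (369 and 314 against 35.5 and 40.4 CPM, log2 fold change -3.18 ± 0.2 SE). Nrg4, a secreted ligand of ErbB receptors, rose (90.7 and 148 CPM at G14.5 against 583 and 643 at P7L, log2 fold change 2.38 ± 0.21 SE, adjusted p = 0.00116), while Egfr of the same receptor family fell, as given above. Ccnd3, a D-type cyclin, rose (39.8 and 54.2 CPM at G14.5 against 353 and 361 at P7L, log2 fold change 2.93 ± 0.19 SE, adjusted p = 3.66e-04), while 2 of 47 genes of DNA replication and mitosis were called. Map2k6, a kinase above p38, rose (20.9 and 33.6 against 248 and 242 CPM, log2 fold change 3.2 ± 0.21 SE). Metabolic genes outside the lists that rose were Ppargc1b, a coactivator of mitochondrial genes (log2 fold change 2.32 ± 0.21 SE), Alas1, which starts heme synthesis (log2 fold change 1.26 ± 0.14 SE), Aqp9, the glycerol channel of hepatocytes (log2 fold change 1.39 ± 0.13 SE), Chpt1, which makes phosphatidylcholine (log2 fold change 1.96 ± 0.16 SE), and Sfxn1, a mitochondrial serine carrier (log2 fold change 1.96 ± 0.17 SE).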
